A study of Mus musculus with 6 samples.

Results

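The subject is 20 pairs of guide RNAs from a pooled CRISPR-Cas9 growth screen in mouse embryonic stem cells, each pair made against the same host gene and sharing part of its sequence. Members were targeting guides that reached 10 counts in 3 or more of the 6 libraries and shared a run of 8 or more bases with the other guide of their host, on the same strand or as reverse complement. This rule found 40 guides on 20 hosts, out of 130 targeting guides that passed the count minimum and 63 hosts with 2 such guides. The other 43 hosts, called hosts with guides apart below, were the comparison. In 5 of these 43 the guides still overlapped at their ends, by 6 or 7 bases. The rule used sequence and the count minimum, and no change between days.

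The cells were the C57BL/6 line #693, infected with 1 lentiviral pool that carried the guides together with Cas9. The 3 libraries of day 0 and the 3 of day 10 therefore share genotype, Cas9 and guide pool, and the groups differ in the day of collection alone, per the labels. Each number from 1 to 3 names a screen with 1 library per day, per the file headers. No gene expression was measured, so the stem cell label could not be set against marker genes, and all libraries come from a single line.

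Cas9 is led to its target by the 20 bases of a guide and cuts only where a short motif of the form NGG, the PAM, follows the matching bases in the genome. The cut falls 3 bases before the PAM, after base 17 of the guide, and repair of the break leaves small insertions or deletions around it. Guides whose cuts slow growth become rarer in the culture. The guides of this screen were aimed at upstream translons, translated stretches that precede the main coding sequence of an mRNA. Overlapping guides of a host aim Cas9 at nearly the same bases, so the question here is how far their representation changed alike from day 0 to day 10.

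The sequences show how close the members of a pair lie. All are written 5′ to 3′, with the shared run in capitals. On an opposite-strand pair the capitals of the second guide are the reverse complement of those of the first. In 5 pairs the shared run was 19 bases, the longest found. Mlf2 encodes a myeloid leukemia factor. The other host products are a subunit of the initiation factor eIF2 (Eif2s2), a proliferation-associated protein that binds ribosomes (Pa2g4), a subunit of the regulatory particle of the proteasome (Psmd1) and a tripartite motif protein (Trim43b).
Eif2s2 guide 1: TAGTTCGAGCGGGTTCGGCa
Eif2s2 guide 2: gTAGTTCGAGCGGGTTCGGC
Mlf2 guide 1: GACGCAAGGATTGGTCCGCg
Mlf2 guide 2: GCGGACCAATCCTTGCGTCc
Pa2g4 guide 1: gGAGACGGAGGCCGCAGCTC
Pa2g4 guide 2: GAGACGGAGGCCGCAGCTCa
Psmd1 guide 1: tCGGATTAATGGATTAGAGA
Psmd1 guide 2: CGGATTAATGGATTAGAGAa
Trim43b guide 1: cAGGGACCGGAATAATTGCT
Trim43b guide 2: AGGGACCGGAATAATTGCTt

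In 8 pairs the run was 14 to 16 bases, and 7 of them are shown. Their hosts include Cnot1, the scaffold of the CCR4-NOT deadenylase, Gldc, the glycine decarboxylase, Herc4, a ubiquitin ligase, Prc1, a regulator of cytokinesis, and Jarid2, a cofactor of Polycomb repressive complex 2.
Cnot1 guide 1: TCAGAACAGAGTAAGAcact
Cnot1 guide 2: TCTTACTCTGTTCTGAaaca
Gldc guide 1: CGCTGCTGACCCTCGTgggc
Gldc guide 2: aaagCGCTGCTGACCCTCGT
Herc4 guide 1: gccgTGGTAATCGCCGCGGC
Herc4 guide 2: gccgGCCGCGGCGATTACCA
Gm20594 guide 1: TATGCTACTTTTGCAcggtc
Gm20594 guide 2: ttgatTATGCTACTTTTGCA
Prc1 guide 1: gacccTCCACTTGCCACGCG
Prc1 guide 2: tcccgCGCGTGGCAAGTGGA
Elobl guide 1: GAGTGATCTCCTAGtgtccc
Elobl guide 2: CTAGGAGATCACTCctgctg
Jarid2 guide 1: ctggtgGTTTTTATTGTTGT
Jarid2 guide 2: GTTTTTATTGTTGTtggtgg

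In 6 pairs the run was 9 to 12 bases. Their hosts include Pabpc1, the cytoplasmic poly(A) binding protein, Dppa5a, an RNA-binding protein of pluripotent cells, Fbp2, a fructose-bisphosphatase, Sfpq, a splicing factor of paraspeckles, and Ulk1, a kinase that starts autophagy.
Pabpc1 guide 1: aaaatccgCGTCTCCCCCGC
Pabpc1 guide 2: agtctccgGCGGGGGAGACG
Dppa5a guide 1: gggtcaccaTCATCCTGCCA
Dppa5a guide 2: ctggttcctTGGCAGGATGA
Fbp2 guide 1: AAGGAGCAAAgggaggcttt
Fbp2 guide 2: ggatttctacAAGGAGCAAA
Sfpq guide 1: CTGTAGTCAAggggcggtcg
Sfpq guide 2: cgagacatagCTGTAGTCAA
Ulk1 guide 1: GTCGGGACCCggtccgactc
Ulk1 guide 2: GGGTCCCGACtgtcagcgcc
Cnbp guide 1: CGTCCGAGTctcctccgctg
Cnbp guide 2: ACTCGGACGaagaaccaaga

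The last pair, Ranbp1, whose host encodes a Ran-binding protein, shared 8 bases and is shown because it goes against the label of a shared cut site.
Ranbp1 guide 1: tCGACTAGCtcaggcgtcgc
Ranbp1 guide 2: agctgCGACTAGCcgcccag
The run covers bases 2 to 9 of guide 1 and bases 6 to 13 of guide 2, with unequal bases on both sides. The other 19 pairs fitted over each other end over end, without a mismatch inside the overlap, on the same strand in 10 pairs and on opposite strands in 9. The guides of Ranbp1 did not, so the distance between their cuts cannot be read from these sequences.

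The bases that follow a guide can be read from its partner where the partner reaches beyond it. All 3 such bases were visible for 14 guides of 10 pairs, and in all 14 they had the form NGG. For Herc4 they were CGG behind guide 1 and CGG behind guide 2, and for Dppa5a AGG behind guide 1 and TGG behind guide 2. The rule did not use these letters.

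The shared run is not the same as the distance between the cuts. Over the 19 pairs the predicted cuts lay between 1 and 25 bases apart, with a median of 6. They were 1 base apart for Eif2s2, Pa2g4, Psmd1 and Trim43b. Mlf2 also shared 19 bases, but its guides lie on opposite strands and their cuts were 15 bases apart. Cnot1 had cuts 18 bases apart, Elobl 20, Ulk1 24 and Cnbp 25. Both guides together covered from 21 to 31 bases of target.

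The members could not be placed in the genome here. The windows available ran from 250 bases before to 50 bases after each RefSeq gene start of build GRCm38.p6. They covered 15 of the 20 hosts, and none of the 40 guides (0) matched a window of any gene, against 15 of 86 guides of hosts with guides apart. All 20 host names matched a RefSeq symbol. Whether a cut falls in an exon, an intron or a coding sequence was not analysed here.

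Depth was uneven. Named guides had from 102313 to 602476 counts in the day 0 libraries and from 21991 to 784149 in those of day 10, of which replicate 3 was the shallowest. The median count of the 40 members ran from 158.5 in that library to 4965.5 in day 10 replicate 2. Values below are counts per 1000000 counts (CPM) after TMM scaling of the library totals, or the ratio of the counts of guide 2 to those of guide 1, in which the library size cancels.

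Guides of a pair were not equally frequent at day 0, although they were pooled in equal amounts, per the labels. The more frequent guide exceeded the other by a median of 2.31-fold, from 1.27-fold for Trim43b to 71.2-fold for Dppa5a. It was over 2-fold in 12 of 20 pairs and over 10-fold in 3, Dppa5a, Jarid2 and Herc4. In hosts with guides apart the median was 2.99-fold, over 10-fold in 5 of 43. Herc4 guide 1 stood at 1022 ± 115 CPM and guide 2 at 25174 ± 572 CPM at day 0 (SD, n = 3 each), although they share 16 of 20 bases. The SD of the log2 ratio over the 3 day 0 libraries had a median of 0.09 over the 20 pairs, and over the 3 day 10 libraries of 0.18. At day 10 it was highest for Psmd1, at 6.39, where a missing entry of guide 2 was read as 0. It was 1.00 for Dppa5a and 0.73 for Jarid2, each with a rare guide.

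Of the 40 guides, 6 passed an adjusted p of 0.05 by edgeR's quasi-likelihood F test, adjusted by Benjamini-Hochberg over the 136 tested guides, 5 lower and 1 higher at day 10. This is 15% of the members, and 21.3% of all tested guides passed, 14.7% lower and 6.62% higher. For 14 of the 40 all CPM of 1 day lay above those of the other, against 38.2% of all tested guides. The median log2 fold change of the members was −0.04 and the highest 0.26. With the replicate number as a block 3 of the 6 were left, the guides of Cnot1 and Herc4 guide 2. No member (0) passed in edgeR when libraries were scaled on the control guides, when day 0 replicate 1 was left out or when day 0 replicate 2 was left out, where 3, 7 and 7 had an unadjusted p under 0.05. Without day 0 replicate 3 there were 2, and without day 10 replicate 1 there were 10.

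Both guides of Cnot1 fell. Guide 1 stood at 4304, 3904 and 4287 CPM in day 0 replicates 1 to 3 and at 2903, 2951 and 3494 CPM at day 10. Guide 2 stood at 8559, 8036 and 8141 CPM at day 0 and at 4982, 6347 and 6352 CPM at day 10. For both guides every day 0 value lay above every day 10 value. The log2 fold changes were −0.45 ± 0.11 and −0.50 ± 0.11 (SE), with edgeR adjusted p-values of 0.0223 and 0.0103. In no other of the 20 pairs did both guides pass, and both Cnot1 guides also passed with the replicate block (edgeR adjusted p = 0.0386 and 0.0196). They did not pass with limma, at adjusted p-values of 0.0530 and 0.0508. Guide 2 was the more frequent in all 6 libraries. The ratio of guide 2 to guide 1 was 1.99, 2.06 and 1.90 at day 0 and 1.72, 2.15 and 1.82 at day 10.

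Herc4 guide 2 was the only member that rose past the threshold. It went from 24674, 25051 and 25797 CPM to 29293, 29559 and 31853 CPM, a change in log2 CPM of 0.26 ± 0.05 (SE, edgeR adjusted p = 0.0103). With limma its adjusted p was 0.0728. Its partner had 1149, 925 and 993 CPM at day 0 and 1265, 1139 and 1044 CPM at day 10, which overlap, and a change in log2 CPM of 0.19 ± 0.18 (SE, edgeR adjusted p = 0.510). The rarer guide had 23 counts in day 10 replicate 3. The ratio of the guides lay between 21.5 and 27.1 at day 0 and between 23.2 and 30.5 at day 10.

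Of the Elobl pair, whose host encodes an elongin B-like protein, guide 2 alone passed the threshold. Guide 1 had 8569, 7604 and 8408 CPM at day 0 and 9457, 7970 and 8485 CPM at day 10, a change in log2 CPM of 0.08 ± 0.09 (SE, edgeR adjusted p = 0.612). Guide 2 fell from 3866, 3833 and 4141 CPM to 3179, 3130 and 2768 CPM, a change in log2 CPM of −0.36 ± 0.11 (SE, edgeR adjusted p = 0.0394). Their ratio went from 0.451, 0.504 and 0.492 to 0.336, 0.393 and 0.326, with no overlap of the days. With the replicate block guide 2 had an edgeR adjusted p of 0.0706.

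Dppa5a guide 2 fell from 15726, 15623 and 15822 CPM to 12416, 14182 and 13204 CPM. Its change in log2 CPM was −0.24 ± 0.07 (SE, edgeR adjusted p = 0.0394, and 0.0706 with the replicate block). Guide 1, with a cut 5 bases away, was rare, with 23, 20 and 160 counts at day 0 and 139, 109 and 11 at day 10. Its change in log2 CPM was −0.06 ± 0.44 (SE), and its 95% interval, from −1.04 to 0.92, includes the change of guide 2.

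The guides of a pair were then compared directly. The test was the interaction of guide and day in edgeR's quasi-likelihood fit with library as a block, over all 63 hosts with 2 tested guides, in which library size and any change common to both guides cancel. No pair (0 of 20) and no host with guides apart (0 of 43) passed an adjusted p of 0.05, which is 0% of the 63. At an unadjusted p under 0.05 there were 2 of 20 and 10 of 43, and 19% over all 63. The 10 include hosts whose guides join end over end by 6 or 7 bases, Bzw1 and Kpnb1 among them. The counts at an unadjusted p under 0.05 moved with single libraries. They were 0 of 20 without day 0 replicate 2 or without day 0 replicate 3, and 4 of 20 without any of the day 10 libraries in turn. For hosts with guides apart they were 5 of 43 without day 0 replicate 1 or without day 0 replicate 3, and 6 of 43 without day 0 replicate 2. With the replicate block they were 1 of 20 and 6 of 43. With DESeq2 in place of edgeR 1 of 20, Elobl, and 4 of 43 passed. In edgeR without day 10 replicate 1 it was 1 of 20, Sfpq, and 8 of 43, and without day 10 replicate 2 it was 0 of 20 and 4 of 43. Ratios of the guides did not overlap between the days in 2 of 20 pairs, Elobl and Prc1, against 19% of the 63.

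Among the pairs with cuts 1 base apart, the Eif2s2 ratio was 2.02, 2.16 and 2.05 at day 0 and 2.25, 2.07 and 2.46 at day 10. The difference in log2 fold change, given here as guide 2 minus guide 1, was 0.11 with a 95% interval from −0.12 to 0.34. In the Pa2g4 pair the ratio was 0.739, 0.840 and 0.771 at day 0 and 0.608, 1.04 and 0.833 at day 10, and the difference was 0.04 (95% interval −0.42 to 0.51). Day 0 lay inside the range of day 10 for Pa2g4, and the days overlapped for Eif2s2. The Trim43b ratio was 1.30, 1.28 and 1.22 at day 0 and 1.35, 1.17 and 1.82 at day 10, with a difference of 0.14 (95% interval −0.29 to 0.57). All 3 intervals include 0.

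Psmd1 was the exception among these pairs. Its guide 1 had 4947, 4247 and 4619 CPM at day 0 and 4728, 4714 and 5899 CPM at day 10. Guide 2 had 1616, 1551 and 1594 CPM at day 0 and 1770.5 and 1951 CPM in day 10 replicates 2 and 3. In day 10 replicate 1 its entry was missing and was read as 0, while guide 1 had 3028 counts there. A counted 0 would allow up to 3 counts or 4.68 CPM. The ratio was 0.327, 0.365 and 0.345 at day 0 and 0.376 and 0.331 in the day 10 libraries that counted guide 2. The difference was −1.57 ± 1.84 (SE, 95% interval −5.85 to 2.72), and 0.08 without day 10 replicate 1. The ratio thus stayed between 0.327 and 0.376 in 5 libraries, and guide 2 had no entry in the other.

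Mlf2, with 19 shared bases on opposite strands, had a ratio of 0.368, 0.277 and 0.244 at day 0 and 0.254, 0.309 and 0.260 at day 10. Its difference was −0.08 (95% interval −0.55 to 0.39), and its guides had log2 fold changes of 0.05 and −0.01. How reads were assigned to guides that share 19 bases is not given in the sources used here, and its part in these ratios was not tested.

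The difference with the narrowest interval was that of Pabpc1, the most frequent pair. Its ratio was 1.51, 1.44 and 1.51 at day 0 and 1.42, 1.48 and 1.61 at day 10. Both guides had a log2 fold change of −0.09, and the difference was 0.01 ± 0.06 (SE, 95% interval −0.13 to 0.14). The interval of Jarid2 was among the widest, from −1.05 to 0.83 around −0.11. Jarid2 guide 2 had 17, 27 and 86 counts at day 0 and 143, 72 and 2 at day 10, so the small fitted difference of this pair rests on few counts. For Cnot1 the difference was −0.07 (95% interval −0.42 to 0.29) and for Herc4 0.04 (95% interval −0.28 to 0.36).

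Elobl and Prc1 were the pairs with an unadjusted p under 0.05. The Elobl difference was −0.45 ± 0.15 (SE, 95% interval −0.79 to −0.11), with an unadjusted p of 0.0157 and an edgeR adjusted p of 0.198 over the 63 hosts. It was negative in 3 of 3 screens, and 8 of 20 pairs and 14 of 43 hosts with guides apart had 1 sign in all 3 screens. In the Prc1 pair it was −0.42 ± 0.17 (SE, edgeR adjusted p = 0.223), also negative in 3 of 3 screens. Prc1 is named here after its values were seen. Its ratio was 1.15, 1.40 and 1.42 at day 0 and 0.929, 1.10 and 0.938 at day 10, so that guide 2 was the more frequent at day 0 and not in 2 of the day 10 libraries.

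A further 7 pairs had smaller differences, and none of their 14 guides (0) passed the threshold. Their log2 fold changes, guide 1 before guide 2, were 0.24 and 0.16 for Gm20594, 0.02 and 0.21 for Gldc, 0.05 and 0.18 for Cnbp, and −0.04 and −0.21 for Fbp2. They were 0.04 and −0.22 for Sfpq, 0.14 and −0.05 for Ulk1, and 0.19 and −0.04 for Ranbp1. Their differences lay between −0.28, for Sfpq, and 0.16, for Gldc. The Ulk1 difference was −0.20 ± 0.10 (SE, edgeR adjusted p = 0.380). It was negative in 3 of 3 screens, as were those of Sfpq, Ranbp1 and Gm20594, and that of Cnbp was positive in 3 of 3.

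In the median size of the difference, members of a pair lay closer together than guides of hosts with guides apart, by a small margin. The size of the difference between the fitted log2 fold changes of the guides had a median of 0.15 over the 20 pairs, from 0.005 to 0.62, and of 0.18 over the 43 hosts, from 0.02 to 2.08. At each upper end 1 guide had at least 1 missing entry at day 10, read as 0. The size was over 0.5 in 1 of 20 pairs, Psmd1, and in 7 of 43 hosts. Both medians differ by less than the SD of the single-screen medians, 0.05 for the pairs and 0.07 for the hosts. The single-screen medians of both sets moved together, so this SD does not measure the spread of the gap between the sets. By screen the medians were 0.27, 0.16 and 0.22 for the pairs and 0.35, 0.22 and 0.27 for the hosts, lower for the pairs in 3 of 3 screens. The order turned without day 0 replicate 3, at 0.18 for the pairs and 0.17 for the hosts. The median of the pairs was 0.09 without day 10 replicate 3 and 0.08 over the 14 pairs that share at least 12 bases.

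Frequency and base composition differed between these sets as well. At day 0 the median guide stood at 6740 CPM in the pairs and at 3601 CPM in hosts with guides apart. The SD of the log2 ratio over the day 10 libraries had a median of 0.18 in the pairs and 0.29 in the hosts. The GC content of the guides differed by a median of 5 percentage points in the pairs and 10 in the hosts. With a linear trend of the log2 fold change with GC content removed, the medians were 0.148 for the pairs and 0.151 for the hosts. The part of guide frequency in the difference between the sets was not tested.

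Both guides had log2 fold changes of the same sign in 11 of 20 pairs, 7 lower and 4 higher, and in 29 of 43 hosts with guides apart, against 63.5% of the 63. Among the 5 pairs with 19 shared bases it was 1, Pa2g4, and the guides of the other 4 had log2 fold changes between −0.50 and 0.12. Both ends are Psmd1, whose guide 2, with its missing entry, had −0.50 ± 1.11 (SE). Those of Eif2s2, Mlf2 and Trim43b lay between −0.06 and 0.06. The Spearman correlation of the guides' log2 fold changes was 0.43 over the 20 pairs and 0.47 over the 43 hosts with guides apart. The Pearson correlation was 0.56 for the pairs and 0.51 for the hosts. Without the 2 hosts of each set with the most extreme guide 1, it was 0.18 and 0.41. The order of the sets thus depended on the measure.

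The size of the difference had a median of 0.10 over the 10 pairs with cuts at most 6 bases apart and of 0.18 over the 9 pairs with cuts farther apart. The correlation of distance and size over these 19 pairs was −0.02, with Psmd1 (cuts 1 base apart, size 0.62) included, and was not computed without it. By shared run the medians were 0.09 for 5 pairs with 19 bases, 0.13 for 8 pairs with 14 to 16 and 0.19 for 7 pairs with 8 to 12. The correlation of run and size was −0.01 over 20 pairs and −0.26 without Psmd1. The 6 guides past the threshold fell in pairs with 11 to 16 shared bases.

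At the limit of the rule, Ranbp1 with 8 bases and Cnbp with 9 were just inside, and Kpnb1, Nhp2 and Zbtb17 with 7 bases just outside. The log2 fold changes were −0.74 and −0.26 for Kpnb1, an importin, 0.003 and 0.17 for Nhp2, and 0.05 and 0.12 for Zbtb17. Nhp2 guides join end over end on opposite strands with predicted cuts 1 base apart, as near as any pair inside the rule. The guides of Bzw1, which share 6 bases, have predicted cuts at the same position (0 bases apart). Bzw1 guide 1 went from 6728, 6600 and 6452 CPM to 8684, 7414 and 7487 CPM, and guide 2 from 2191, 2000.2 and 2234 CPM to 991, 1570 and 1679 CPM. The days did not overlap for either guide, and the guides had log2 fold changes of opposite sign. These were 0.27 ± 0.09 and −0.65 ± 0.21 (SE, edgeR adjusted p = 0.0564 and 0.0459). The difference between the Bzw1 guides did not pass the threshold (edgeR adjusted p = 0.165). Bzw1 encodes a protein that alters start codon selection, and it was chosen for this comparison after its values were seen.

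With the counts of both guides summed, 5 of the 20 hosts passed an edgeR adjusted p of 0.05, 4 lower and 1 higher, against 37.3% of the 67 hosts tested, 22.4% lower and 14.9% higher. Among them, Cnot1 changed by −0.49 ± 0.09, Dppa5a by −0.24 ± 0.07 and Pabpc1 by −0.09 ± 0.03, and Herc4 rose by 0.25 ± 0.05 (SE each). Their edgeR adjusted p-values were 5.16e-04, 0.0152, 0.0255 and 7.79e-04. Pabpc1 passed as a sum with neither guide past the threshold, at adjusted p-values of 0.284 and 0.238. The sums of Dppa5a and Herc4 were carried by the frequent guide, and size factors from the control guides left 0 hosts, with 2 at an unadjusted p under 0.05.

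The 6 control guides, non-targeting or aimed at safe sites, gave the background. Their log2 fold changes ran from −0.42 to 0.55, none (0 of 6) passed the adjusted threshold and 1 had an unadjusted p under 0.05. Only 4 of the 40 members lay outside that range, among them the guides of Cnot1 and Psmd1 guide 2. Between any 2 control guides the size of the difference had a median of 0.42 over 15 combinations, larger than the 0.15 of the pairs. The control guides stood between 709 and 3038 CPM at day 0, below the median member.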

How the data were processed

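Guide cassettes were counted in 3 day 0 and 3 day 10 libraries, labelled as biological replicates. The authors deposited raw counts per guide sequence. Bowtie2 2.3.4.3 is named in the submitters' processing notes without a role, and the rule for assigning reads is not given in the sources used here. A missing entry was read as 0, and the deposited counts held no written 0. The table names 151 guides, and its 216 unnamed sequences, 1.25% to 1.48% of a library, were left out. Elobl guide 1 names a pair of sequences, of which only the counted was used.

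Members and lists were chosen with earlier results of these data known. Guides that reached 10 counts in 3 or more libraries were tested (136) with edgeR 4.0.16 in R 4.3.3, quasi-likelihood fit, TMM scaling, day as the only term, Benjamini-Hochberg over all guides and a threshold of 0.05. The difference within a host was the guide by day term in a fit with 1 row per host, 12 columns and library as a block. SE and 95% intervals were taken from the test's p and degrees of freedom. The difference between separately fitted guides can deviate from this term where counts are few or missing. For Psmd1 it was −0.62, against −1.57 by this term. Cuts were placed after base 17. Pairs described with values in every library were, by rule, those with a guide past the threshold, the 3 largest and 3 smallest differences, and the 5 that tie for the longest run. Prc1 was added after its values were seen, and the other pairs are given by fold changes and differences. Values of 1 pair that met this rule are not reported here, though counts and medians include it. No host with guides apart met its condition, a difference past the threshold. Floors and intervals cover counting and replicate error only. The fits were run on simulated counts with changes of 1 log2 unit and 1 dispersion for all guides. Those changes are larger than that of any member, so the detection of smaller ones was not tested. Same-numbered libraries are 1 screen per the file headers, and their deviations from day means correlated at −0.09, −0.20 and −0.02 over guides.

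Alternatives were other scalings (DESeq2 1.42.0 size factors, library totals, control guides), other filters, DESeq2, limma 3.58.1 on log2 values with a pseudocount of 0.5 counts, the replicate block, an adjusted p under 0.1, shared runs of at least 10 or 12 bases and leaving out each library. Chosen after seeing the data were the removal of the Psmd1 guides, a linear GC trend and 3 rules on guides joined end over end.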

Additional observations from a re-analysis of the deposited data

How the results depend on the processing

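Size factors from the control guides left 0 member guides and 0 member hosts, limma left 1 guide, Elobl guide 2, and the replicate block 3 guides. The block also took differences at an unadjusted p under 0.05 from 2 to 1 of the pairs and from 10 to 6 of the hosts with guides apart. DESeq2 called the difference between guides in 1 overlapping pair and 4 hosts with guides apart. An adjusted p under 0.1 gave 8 hosts. A run of at least 12 bases gave a median size of 0.085, and a set of 12 hosts joined end over end with cuts at most 6 bases apart, which adds Nhp2 and Bzw1 to 10 members, held 3 called guides and 3 called hosts. Leaving out each library gave 0 to 10 guides, 4 to 7 hosts, 0 to 1 overlapping pair and 0 to 8 hosts with guides apart called for a difference. It gave medians of 0.094 to 0.21 for pairs and 0.13 to 0.27 for hosts, and 8 to 14 pairs of equal direction. Of the values of named guides under alternatives, 65 kept direction and side of the threshold and 31 lost the threshold. Of those of named pairs, 172 kept both, 1 (Elobl, DESeq2) passed it and 16 changed sign, none of them called. These were Cnot1 (0.061), Dppa5a (0.43), Mlf2 (0.069) and Psmd1 (0.078) without day 10 replicate 1, Jarid2 (0.36), Pa2g4 (−0.19) and Herc4 (−0.017) without day 10 replicate 2, and Dppa5a (0.12), Herc4 (−0.016), Pabpc1 (−0.038) and Trim43b (−0.013) without day 10 replicate 3. The others were Herc4 (−0.049) and Mlf2 (0.078) without day 0 replicate 1, Jarid2 (0.055) and Pabpc1 (−0.015) without day 0 replicate 2, and Pabpc1 (−0.019) with DESeq2. The cause was not tested. At the other end, leaving out a library gave −0.17 for Cnot1, −0.46 for Dppa5a, 0.10 for Herc4, −0.64 for Jarid2, −0.22 for Mlf2, 0.32 for Pa2g4, 0.039 for Pabpc1, −3.46 for Psmd1 and 0.27 for Trim43b. The 21991 counts of day 10 replicate 3 limit what can be seen of rare guides.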
